A study of Homo sapiens with 9 samples.

Results

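The chaperonin CCT, also called TRiC, was described through its 8 subunit genes, TCP1, CCT2, CCT3, CCT4, CCT5, CCT6A, CCT7 and CCT8, in transfected HEK293T cells. Members were all probes of the array whose gene symbol in the platform table is one of these 8 symbols. This gave 14 of the 47310 probes and 8 of the 11830 genes with a kept probe, and all 14 probes were detected on all 9 arrays and were among the 20914 probes kept for testing. HEK293T is a human embryonic kidney line that carries the SV40 large T antigen. The cells received the pRK5 expression vector carrying LAV-BPIFB4, the longevity-associated variant of BPIFB4, or the same vector carrying WT-BPIFB4, or an empty plasmid, with 3 arrays per group. In every group transfection used a cationic lipid reagent, serum was withdrawn 24 hours later, and starvation lasted 18 hours before total RNA was labelled for Illumina bead arrays. Nothing in the labels ties the triplicates to separate cultures. The spread behind the p-values is therefore that among arrays and may be technical.

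CCT is a cytosolic folding machine built of stacked rings in which each of the 8 paralogous subunits holds a fixed place. It binds actin, tubulin and some WD40 repeat proteins inside its chamber and folds them with the help of ATP. Prefoldin hands over unfolded actin and tubulin to it, and phosducin-like proteins act as its cofactors. Because the subunits are needed together, their genes are usually expressed side by side in dividing cells.

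In cells with LAV-BPIFB4, 1 of the 14 CCT probes fell, a TCP1 probe that was 1.53-fold lower than with the empty vector, beside 4.08% of all kept probes called lower. No CCT probe passed the test in cells with WT-BPIFB4 against the empty vector, where 1.07% of all kept probes did, nor between the BPIFB4 forms, where 0% did. The empty vector had the highest mean of the 3 groups for 10 of the 14 probes, beside 38.9% of all kept probes, but for 4 of the 14, beside 36%, when arrays were scaled to a common median in place of quantile normalisation. With LAV-BPIFB4, 6 of the 14 probes were lower on every array than on any empty vector array, beside 15.9% of all kept probes. They were the called TCP1 probe and, without passing the test, both CCT3 probes, 1 CCT6A probe, and the CCT2 and CCT8 probes. With median scaling, the changes of CCT2 (0.13), CCT8 (0.08) and CCT3 ILMN_2334989 (0.04) were above 0. Those of TCP1 (-0.33), CCT6A ILMN_1722502 (-0.28) and CCT3 ILMN_1651828 (-0.09) stayed below 0, and none was called. On the same arrays the heat shock genes HSPA6 and DNAJB1, whose products belong to the HSP70 and HSP40 families, rose in both BPIFB4 groups.

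All 9 arrays shared 1 chip, where each group took neighbouring places, and an effect of place cannot be told apart from one of group. Between 18940 and 20658 probes were detected per array at a detection p-value under 0.05, and median signals lay between 93.1 and 138.7 units. Of 7 HEK293 marker genes with a probe, 5 (EYA1, NEFL, NEFM, INA and VIM) were detected on all 9 arrays, while PAX2 and LHX1 were not kept. None of the 4 endothelial markers was kept, and of the leukocyte, hepatocyte and fibroblast markers those kept were CD14, ALB and COL1A1. The BPIFB4 probe was detected on 0 of 9 arrays, with detection p-values of 0.474 to 0.896, so the array gave no check of the transgene. The WT-BPIFB4 arrays were spread along the first principal component, with -12.33, 9.672 and 29.26 for replicates 1, 2 and 3. LAV-BPIFB4 arrays had 19.67 to 25.22 and empty vector arrays -32.11 to -29.85. WT-BPIFB4 replicate 1 was the array of its group nearest to the empty vector. Fewer cells of a kind and less RNA per cell cannot be told apart in these bulk samples.

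Promoter windows are shown for 3 of the members with probes below the empty vector range on every LAV-BPIFB4 array (TCP1, CCT3 and CCT8). CCT2 and CCT6A also had such a probe. The CCT2 windows, which hold matches given below, are not printed, and CCT6A had no window. Further windows are shown for MRPL18, which starts close to TCP1 on the opposite strand, and for HSPA6, a heat shock gene that rose on the same arrays. Each window holds 250 bases before and 50 after a RefSeq start site on GRCh38.p14, 5′ to 3′ on the gene's strand. Capitals mark matches to the heat shock pair, GAANNTTC or TTCNNGAA, and to the ETS letters, CGGAAGT or ACTTCCG. MRPL18 has windows at other start sites too, and the printed window holds more heat shock pairs than those. DNAJB1 also rose, and its windows, not printed, hold 0, 2 and 1 heat shock pairs.
TCP1 (chr6:159789553-159789852, minus strand): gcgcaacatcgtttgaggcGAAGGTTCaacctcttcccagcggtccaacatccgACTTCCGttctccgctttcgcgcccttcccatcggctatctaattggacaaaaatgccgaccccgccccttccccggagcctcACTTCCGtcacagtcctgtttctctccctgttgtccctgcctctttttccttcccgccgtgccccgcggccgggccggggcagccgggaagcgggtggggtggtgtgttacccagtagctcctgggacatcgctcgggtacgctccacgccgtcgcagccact
MRPL18 (chr6:159789617-159789916, plus strand): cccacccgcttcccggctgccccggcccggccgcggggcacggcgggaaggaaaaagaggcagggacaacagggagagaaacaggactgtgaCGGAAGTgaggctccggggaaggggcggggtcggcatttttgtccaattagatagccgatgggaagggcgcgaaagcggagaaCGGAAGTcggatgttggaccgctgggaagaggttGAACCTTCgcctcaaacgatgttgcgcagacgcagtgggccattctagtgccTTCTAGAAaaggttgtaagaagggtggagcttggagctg
CCT3 (chr1:156338243-156338542, minus strand): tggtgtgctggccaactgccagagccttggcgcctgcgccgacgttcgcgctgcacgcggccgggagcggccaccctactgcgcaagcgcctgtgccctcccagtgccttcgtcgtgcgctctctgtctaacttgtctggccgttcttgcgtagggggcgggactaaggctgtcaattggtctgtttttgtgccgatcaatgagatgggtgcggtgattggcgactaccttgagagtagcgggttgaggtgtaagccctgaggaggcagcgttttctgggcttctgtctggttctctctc
CCT8 (chr21:29073599-29073898, minus strand): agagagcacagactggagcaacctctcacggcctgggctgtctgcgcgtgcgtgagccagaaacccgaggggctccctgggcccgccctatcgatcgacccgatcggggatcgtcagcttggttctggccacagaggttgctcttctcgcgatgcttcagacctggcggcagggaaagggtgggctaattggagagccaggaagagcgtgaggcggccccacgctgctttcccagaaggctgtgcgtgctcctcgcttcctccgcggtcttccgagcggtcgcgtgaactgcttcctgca
HSPA6 (chr1:161524290-161524589, plus strand): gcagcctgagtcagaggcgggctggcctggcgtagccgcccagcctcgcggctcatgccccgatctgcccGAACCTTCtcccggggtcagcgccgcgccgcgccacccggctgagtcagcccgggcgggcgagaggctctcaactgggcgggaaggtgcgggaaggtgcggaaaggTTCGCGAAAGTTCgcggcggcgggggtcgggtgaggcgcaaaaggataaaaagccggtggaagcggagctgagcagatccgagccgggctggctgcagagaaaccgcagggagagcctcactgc

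RefSeq windows were found for 7 of the 8 members, 9 windows in all, and CCT6A was not among them. The ETS letters were in 3 of the 9 member windows, those of TCP1, CCT7 and 1 of CCT2, and in 6.83% of all 35116 windows. GAANNTTC was in 2 of the 9, that of TCP1 and 1 of CCT2, and in 6.77% of all windows. TTCNNGAA was in 1 of the 9, a window of CCT4 whose other window lacks it, and in 7.74% of all windows. Both strands were searched for every motif, and the heat shock pairs read the same on either strand. A CCAAT box (CCAAT or ATTGG) was in 4 of the 9 member windows, for 4 members, and in 34.6% of all windows. A GC box (GGGCGG or CCGCCC) was in 6 of the 9, for 5 members, and in 45% of all windows. No member window held TATAAA or TTTATA, which were in 11.5% of all windows. The CCT5 window and 1 of CCT4 held none of these motifs. Whether the listed start sites are those used in these cells was not tested. The TCP1 and MRPL18 windows printed above overlap, and the ETS matches and the GAANNTTC match of TCP1 lie in the stretch that they share. The printed MRPL18 window holds a further heat shock pair outside that stretch. That of HSPA6 holds 3 heat shock pairs, of which 2 overlap and are capitalised as 1 stretch. A match describes the letters only.

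**Figure D1:**
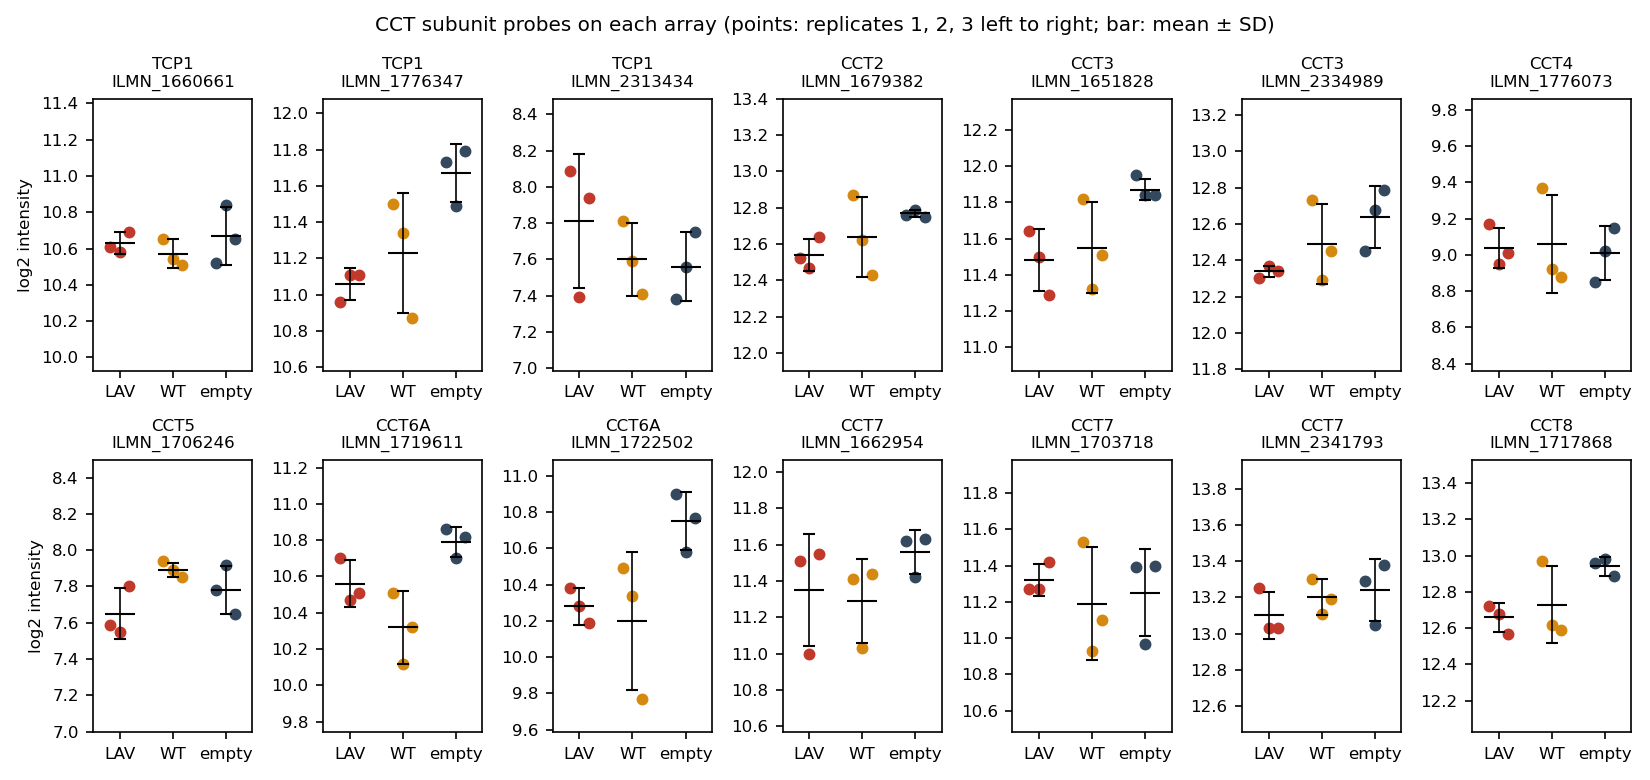
Log2 intensity (vertical axes, each spanning the same 1.5 log2 units) of the 14 CCT probes on the 9 arrays, with LAV-BPIFB4, WT-BPIFB4 and empty vector from left to right, points for replicates 1, 2 and 3, and bars for mean ± SD. TCP1 ILMN_1776347 lay at 10.96 to 11.11 with LAV-BPIFB4, 10.87 to 11.50 with WT-BPIFB4 and 11.49 to 11.79 with the empty vector.

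TCP1 encodes the alpha subunit that gave the complex its name. Its probe ILMN_1776347 had log2 intensities of 10.96, 11.11 and 11.11 with LAV-BPIFB4, 11.50, 11.34 and 10.87 with WT-BPIFB4, and 11.73, 11.49 and 11.79 with the empty vector. All LAV-BPIFB4 arrays were below all empty vector arrays, and WT-BPIFB4 replicate 1 lay within the range of the empty vector. The log2 change was -0.61 ± 0.14 (SE, n = 3 each, limma, adjusted p = 0.0112) for LAV-BPIFB4 against empty vector and -0.44 ± 0.14 (limma, adjusted p = 0.128) for WT-BPIFB4 against empty vector. The LAV-BPIFB4 call was lost without LAV-BPIFB4 replicate 1 (-0.56) and without empty vector replicate 3 (-0.55), and with median scaling the change was -0.33. A second TCP1 probe, ILMN_1660661, had 10.61, 10.58 and 10.69 with LAV-BPIFB4, 10.65, 10.54 and 10.51 with WT-BPIFB4, and 10.52, 10.84 and 10.65 with the empty vector. Its groups overlapped throughout, with log2 changes of -0.04 for LAV-BPIFB4 and -0.10 for WT-BPIFB4 against the empty vector. The dimmest TCP1 probe, ILMN_2313434, had changes of 0.24 for LAV-BPIFB4 and 0.04 for WT-BPIFB4 and overlapped as well. The change of ILMN_1660661 with LAV-BPIFB4 was 0.57 higher than that of ILMN_1776347, and the within-array differences of the probes did not overlap between LAV-BPIFB4 and empty vector (exact permutation test, two-sided, p = 0.1, the smallest that 3 against 3 arrays allow, 0.267 after Benjamini-Hochberg adjustment over the 8 pairs of probes of 1 gene). The change of ILMN_1776347 minus that of ILMN_2313434 was -0.85 with LAV-BPIFB4 and -0.48 with WT-BPIFB4, also without overlap. For CCT6A, the change of ILMN_1719611 minus that of ILMN_1722502 was 0.24 with LAV-BPIFB4, without overlap. Each of these had p = 0.1 in the same permutation test. The other pairs overlapped in both comparisons with the empty vector or in the one not named. These tests could not pass at that size, and which transcripts each probe reads was not tested.

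CCT3, CCT8 and CCT2 encode the gamma, theta and beta subunits. CCT3 probe ILMN_1651828 had 11.64, 11.50 and 11.29 with LAV-BPIFB4, 11.82, 11.32 and 11.51 with WT-BPIFB4, and 11.95, 11.84 and 11.84 with the empty vector. Both BPIFB4 groups lay below the empty vector without overlap, by -0.40 ± 0.13 (limma, adjusted p = 0.0575) for LAV-BPIFB4 and -0.32 ± 0.13 (limma, adjusted p = 0.218) for WT-BPIFB4. The other CCT3 probe, ILMN_2334989, had 12.30, 12.37 and 12.34 with LAV-BPIFB4, 12.73, 12.29 and 12.45 with WT-BPIFB4, and 12.45, 12.68 and 12.79 with the empty vector. It was lower on every LAV-BPIFB4 array than on any empty vector array, with a log2 change of -0.30 that did not pass (limma, adjusted p = 0.117), and the WT-BPIFB4 and empty vector groups overlapped. CCT8 probe ILMN_1717868 had 12.72, 12.68 and 12.57 with LAV-BPIFB4, 12.97, 12.62 and 12.59 with WT-BPIFB4, and 12.96, 12.98 and 12.89 with the empty vector. Again only WT-BPIFB4 replicate 1 among the BPIFB4 arrays of CCT8 reached the empty vector range, and the LAV-BPIFB4 change was -0.28 ± 0.11 (limma, adjusted p = 0.110). CCT2 probe ILMN_1679382 had 12.52, 12.47 and 12.64 with LAV-BPIFB4, 12.87, 12.62 and 12.43 with WT-BPIFB4, and 12.76, 12.79 and 12.75 with the empty vector. Its LAV-BPIFB4 arrays did not overlap with the empty vector arrays, with a change of -0.22 (limma, adjusted p = 0.221), and its WT-BPIFB4 arrays spread to both sides of them.

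CCT6A encodes the zeta subunit. Its probe ILMN_1722502 had 10.38, 10.28 and 10.19 with LAV-BPIFB4, 10.49, 10.34 and 9.77 with WT-BPIFB4, and 10.90, 10.58 and 10.77 with the empty vector. No BPIFB4 array reached the empty vector range, and the changes were -0.47 ± 0.15 (limma, adjusted p = 0.0647) for LAV-BPIFB4 and -0.55 ± 0.15 (limma, adjusted p = 0.0847) for WT-BPIFB4. The other probe, ILMN_1719611, had 10.70, 10.47 and 10.51 with LAV-BPIFB4, 10.51, 10.12 and 10.32 with WT-BPIFB4, and 10.86, 10.70 and 10.82 with the empty vector. WT-BPIFB4 was lower than the empty vector without overlap by -0.48 ± 0.13 (limma, adjusted p = 0.0686), and the LAV-BPIFB4 change was -0.23 with 1 array at the edge of the empty vector range. At both CCT6A probes WT-BPIFB4 had the lowest mean of the 3 groups. A related pseudogene, CCT6P1, has kept probes of its own, with LAV-BPIFB4 changes of -0.33 and -0.18 and WT-BPIFB4 changes of 0 and -0.34, none called, and cross-hybridisation between the loci was not tested.

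CCT7, CCT4 and CCT5 encode the eta, delta and epsilon subunits, and their groups overlapped in both comparisons with the empty vector. The 3 CCT7 probes had LAV-BPIFB4 changes of -0.21, 0.07 and -0.14 and WT-BPIFB4 changes of -0.26, -0.07 and -0.05. The brightest of them, ILMN_2341793, ranged from 13.03 to 13.25 with LAV-BPIFB4, 13.11 to 13.30 with WT-BPIFB4 and 13.05 to 13.38 with the empty vector. CCT4 probe ILMN_1776073 had 9.17, 8.95 and 9.01 with LAV-BPIFB4, 9.37, 8.92 and 8.88 with WT-BPIFB4, and 8.85, 9.02 and 9.15 with the empty vector. The group means of CCT4 lay within 0.05 of each other, less than the spread inside each group. CCT5 probe ILMN_1706246 had 7.59, 7.55 and 7.80 with LAV-BPIFB4, 7.94, 7.89 and 7.85 with WT-BPIFB4, and 7.78, 7.92 and 7.65 with the empty vector. CCT5 changes were -0.13 for LAV-BPIFB4 and 0.11 for WT-BPIFB4 against the empty vector, both smaller than their standard error of 0.17.

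**Figure D2:**
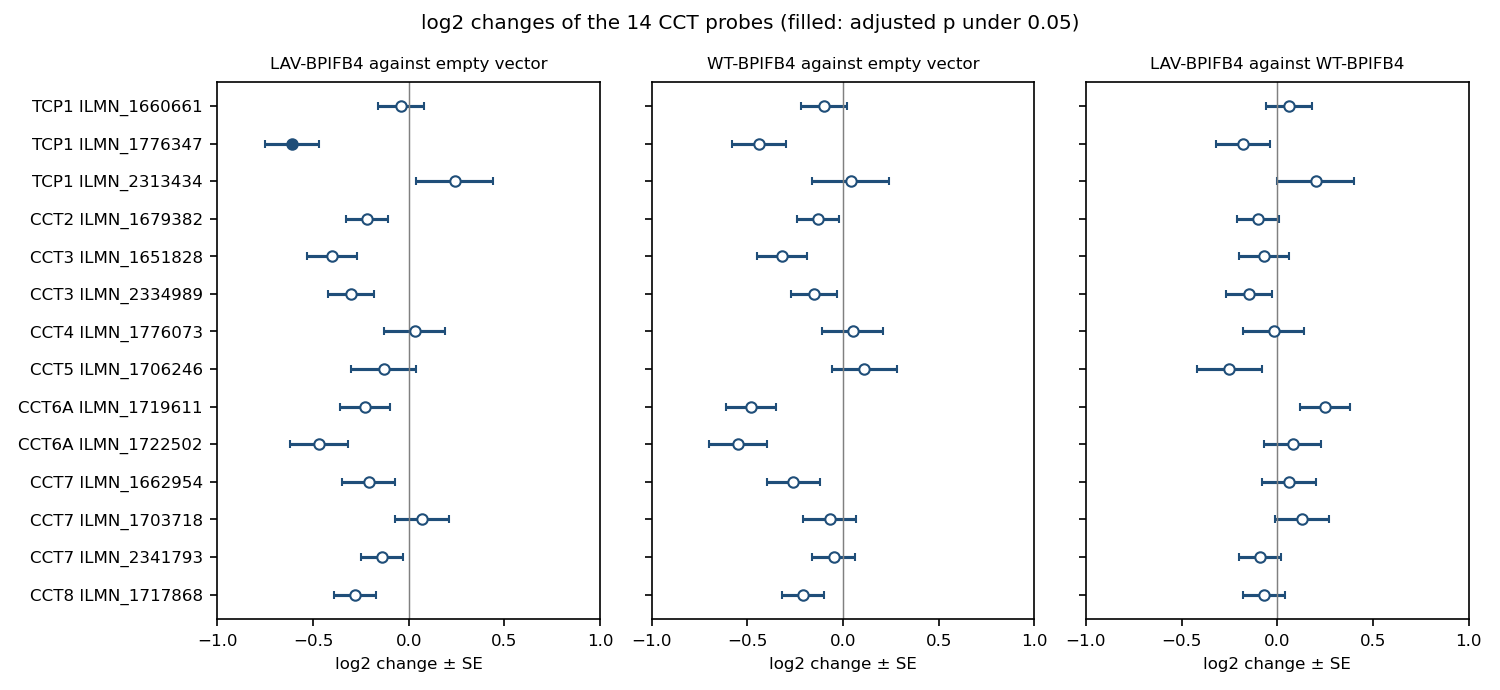
Log2 change (horizontal axes, symbol with bar for ± SE) of each CCT probe in the 3 comparisons, filled where the adjusted p is under 0.05. The filled symbol is TCP1 ILMN_1776347 at -0.61 for LAV-BPIFB4 against empty vector, and most symbols of both comparisons with the empty vector lie left of 0, which for LAV-BPIFB4 holds for 5 of 14 probes with median scaling.

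Over the 14 probes, 1 was called for LAV-BPIFB4 against empty vector, beside 7.72% of all kept probes in either direction and 4.08% lower. At an unadjusted p under 0.05, 5 of the 14 were lower and 0 higher, beside 12.3% and 11.6% of all probes. Without overlap, 6 of the 14 were lower and 0 higher, beside 15.9% and 14.7%. For WT-BPIFB4 against empty vector, 0 of 14 were called by limma, beside 1.07% of all probes in either direction and 0.464% lower. At an unadjusted p under 0.05, 4 were lower there and 0 higher, beside 8.22% and 7.41%, and 3 were lower and 0 higher without overlap, beside 8.67% and 8.31%. The median change of the 14 probes was -0.21 with LAV-BPIFB4 and -0.14 with WT-BPIFB4, and that of all kept probes was 0.0082 and 0.0047. In each of these comparisons 11 of the 14 changes were below 0, and both use the same empty vector arrays.

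The direction depended on the scaling. Median scaling took each array's median over all 47310 probes, of which at most 20658 were detected on an array. That median therefore lay among undetected probes. When arrays were scaled to a common median in place of quantile normalisation, the median CCT change for LAV-BPIFB4 against empty vector was 0.08, with 5 of 14 probes below 0 and 0 called by limma (0 at an unadjusted p under 0.05). Probes with a mean log2 intensity of at least 10 had a median change of 0.25 under that scaling (n = 3369), and the 11 CCT probes among them had 0.07. With quantile normalisation the same values were 0.01 for the bright probes and -0.23 for the CCT probes. The median of the CCT probes was thus below that of the bright probes under both scalings, a difference that was not tested and did not hold for each probe, while the sign of the CCT median differed. For WT-BPIFB4 against empty vector, median scaling gave -0.06 with 11 of 14 below 0, and the bright probes had 0.09 against -0.08 for the CCT probes among them.

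**Figure D3:**
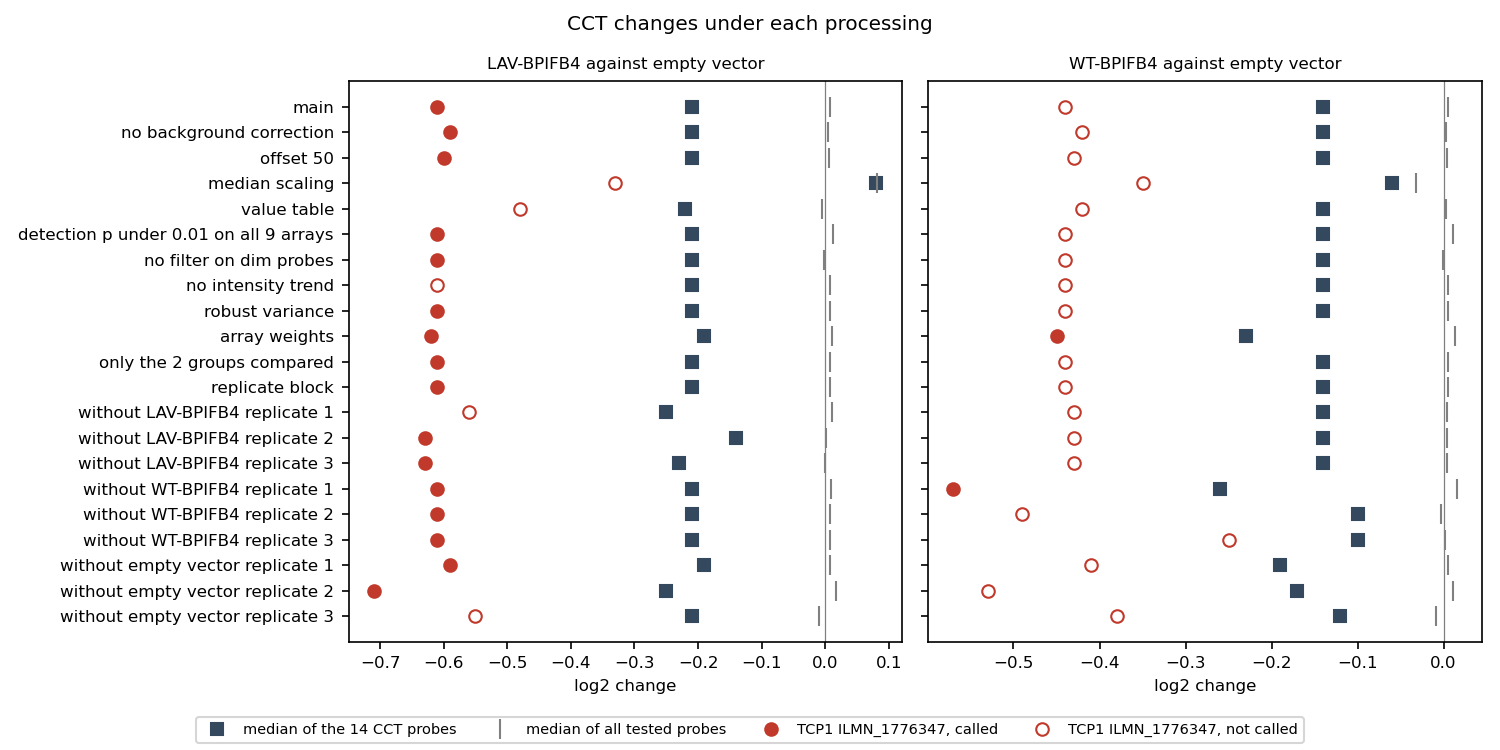
Log2 change (horizontal axes) under each processing (rows), with squares for the median of the 14 CCT probes, ticks for the median of all tested probes, and circles for TCP1 ILMN_1776347, filled where the adjusted p is under 0.05. For LAV-BPIFB4 against empty vector, the CCT median lies between -0.25 and -0.14 except with median scaling, where it is 0.08.

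Level by level, the members did not separate WT-BPIFB4 cleanly from the empty vector. The mean of the 8 genes, each centred on its mean over the 9 arrays, was -0.07, -0.14 and -0.10 with LAV-BPIFB4, 0.18, -0.11 and -0.15 with WT-BPIFB4, and 0.11, 0.11 and 0.18 with the empty vector. WT-BPIFB4 replicate 1 thus lay with the empty vector arrays and the other WT-BPIFB4 arrays with those of LAV-BPIFB4. The same array had 12.70 for DNAJB1, against 12.08 and 12.26 on the other WT-BPIFB4 arrays and 10.22 to 10.72 with the empty vector, so its heat shock level was not that of the empty vector. Without WT-BPIFB4 replicate 1, 5 CCT probes were called lower for WT-BPIFB4 against empty vector, beside 4.51% of all probes: TCP1 ILMN_1776347, CCT3 ILMN_1651828, both CCT6A probes and CCT8. Leaving out any other single array gave 0 CCT calls in that comparison. WT-BPIFB4 replicate 1 is described because its CCT mean lay with the empty vector arrays. Lower WT-BPIFB4 values without it follow in part from that choice. Without it, the count of CCT probes called lower for LAV-BPIFB4 against empty vector was also 5, beside 6.64% of all probes. This array can affect that comparison because the 3 groups share 1 estimate of the spread. What sets this array apart was not tested.

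**Figure D4:**
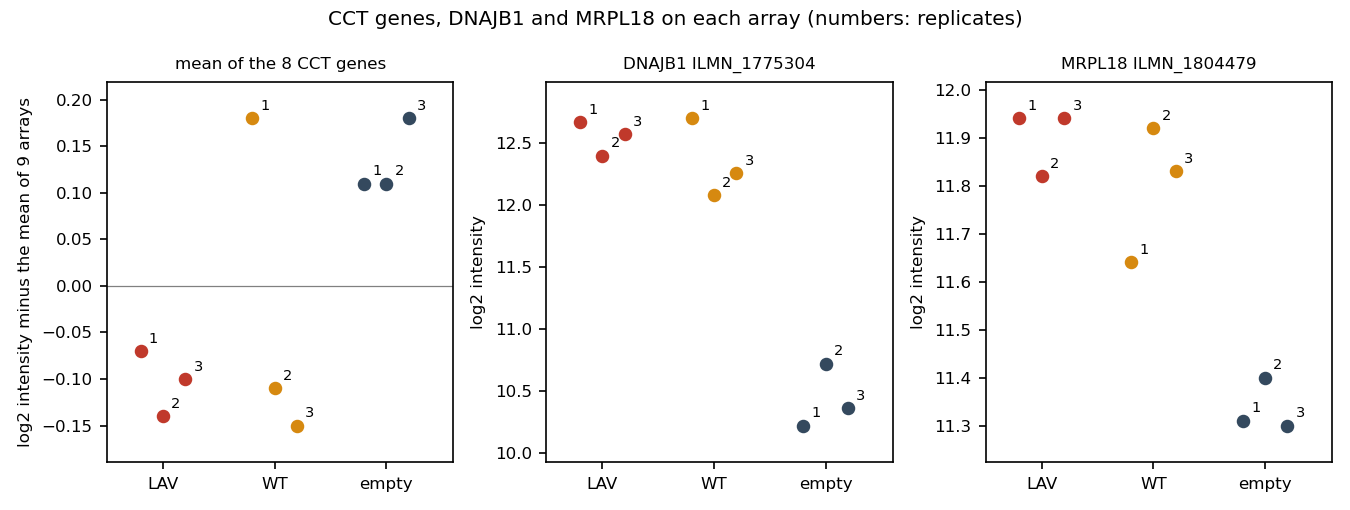
The mean of the 8 centred CCT genes (left, log2 intensity minus the mean of 9 arrays), DNAJB1 (middle) and MRPL18 (right, both log2 intensity) on each array, with LAV-BPIFB4, WT-BPIFB4 and empty vector from left to right and replicate numbers beside the points. WT-BPIFB4 replicate 1 is at 0.18 for the CCT genes, level with empty vector replicate 3, while its DNAJB1 value of 12.70 is above every empty vector array.

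Between the BPIFB4 forms, no CCT probe was called by limma, as 0% of all kept probes were, and none had an unadjusted p under 0.05, beside 4.67% (976) of all kept probes. Changes for LAV-BPIFB4 against WT-BPIFB4 ran from -0.25 to 0.25 with a median of -0.04. CCT5 was lower with LAV-BPIFB4 by -0.25 ± 0.17 (limma, adjusted p = 0.972), the only one of the 14 probes without overlap, beside 4.85% of all probes lower in that way. CCT6A ILMN_1719611 was at the other end with 0.25 ± 0.13 (limma, adjusted p = 0.972), and its groups overlapped. In the order of group means, LAV-BPIFB4 was lowest and the empty vector highest for 6 probes, and WT-BPIFB4 was lowest and the empty vector highest for 4, and no difference between the BPIFB4 forms passed the test.

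Whether the subunits varied together inside groups rested on 1 array. After the group means were removed, the 28 pairs of the 8 genes had a median Pearson r of 0.47 over 9 arrays, with 25 pairs above 0, while pairs of all measured genes had a median of 0. Without WT-BPIFB4 replicate 1 the median was -0.12, with 11 of 28 pairs above 0, and without any other single array it lay between 0.43 and 0.55. With all arrays, the pairs ran from -0.57 for CCT5 and CCT7 to 0.82 for CCT6A and CCT7. Over all 9 arrays, r with the mean of the other 7 members was highest for CCT8 (0.90) and CCT2 (0.88), and lowest for CCT4 (0.41) and CCT5 (0.13). The genes most like the members' mean were SRSF1, a splicing regulator (r = 0.993), TMPO, a nuclear lamina-associated protein (0.988), NCKAP1, an actin regulator (0.987), MAPK6, an atypical MAP kinase (0.985), and DLGAP5, a spindle protein (0.983), out of 11822 genes. These values share the arrays, the groups and the normalisation, and are given as descriptions. SRSF1 had 12.40, 12.21 and 12.26 with LAV-BPIFB4, 12.94, 12.30 and 12.22 with WT-BPIFB4, and 12.78, 12.70 and 12.96 with the empty vector, so that its WT-BPIFB4 replicate 1 lay with the empty vector as it did for the members. Since these genes were picked for following the members over the same arrays, no test of their group differences is given.

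The genes that feed and assist CCT did not move as 1 group. Of the 6 prefoldin subunits, 1 fell and 1 rose with LAV-BPIFB4, beside 4.08% and 3.64% of all kept probes, and none passed with WT-BPIFB4. VBP1, the prefoldin subunit named for binding the VHL protein, had 11.76, 11.77 and 11.82 with LAV-BPIFB4, 12.35, 11.90 and 11.68 with WT-BPIFB4, and 12.43, 12.31 and 12.33 with the empty vector. It fell by 0.57 ± 0.13 with LAV-BPIFB4 (limma, adjusted p = 0.0117), a change that was -0.25 and not called with median scaling, and WT-BPIFB4 replicate 1 was again the WT-BPIFB4 array within the empty vector range. PFDN2 had 6.93, 7.35 and 6.48 with LAV-BPIFB4, 6.68, 6.43 and 6.20 with WT-BPIFB4, and 6.24, 5.98 and 6.05 with the empty vector. PFDN2 rose by 0.83 ± 0.25 with LAV-BPIFB4 (limma, adjusted p = 0.0428), a call that held in 11 of 20 alternatives, and the change was 0.39 without background correction and 0.18 from the authors' second table of values. PFDN5 had changes of -0.25 with LAV-BPIFB4 and -0.34 with WT-BPIFB4, both without overlap and neither called. PFDN1, PFDN4 and PFDN6 had LAV-BPIFB4 changes of 0.12, 0.20 and 0.31 and WT-BPIFB4 changes of 0.12, 0.24 and 0.26, none called.

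Among CCT clients and cofactors, 1 of 14 actin and tubulin genes was called in each comparison with the empty vector, beside 7.72% of all kept probes for LAV-BPIFB4 and 1.07% for WT-BPIFB4. TUBB3, the neuronal beta-tubulin, had 7.98, 7.74 and 7.87 with LAV-BPIFB4, 8.33, 7.85 and 8.09 with WT-BPIFB4, and 6.57, 7.08 and 6.96 with the empty vector. It rose by 1.00 with LAV-BPIFB4 (limma, adjusted p = 0.00453) and by 1.22 with WT-BPIFB4 (limma, adjusted p = 0.00171), while the median of the list was 0.04 and 0.03. Without background correction the TUBB3 changes were 0.60 and 0.76, and with median scaling neither was called. No call was made in either comparison with the empty vector among 10 WD40 repeat clients such as CDC20, 6 tubulin folding cofactors, 3 measured phosducin-like cofactors and the 3 chaperonin-like BBS genes, whose medians ran from -0.41 to 0.12 with LAV-BPIFB4. CCT6B, a testis-enriched paralog of CCT6A, had changes of 0.14 and -0.01. The mitochondrial chaperonin, a separate ring machine, had no call either, with HSPD1 at -0.16 and HSPE1 at 0.12 for LAV-BPIFB4 and -0.07 and 0.11 for WT-BPIFB4.

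**Figure D5:**
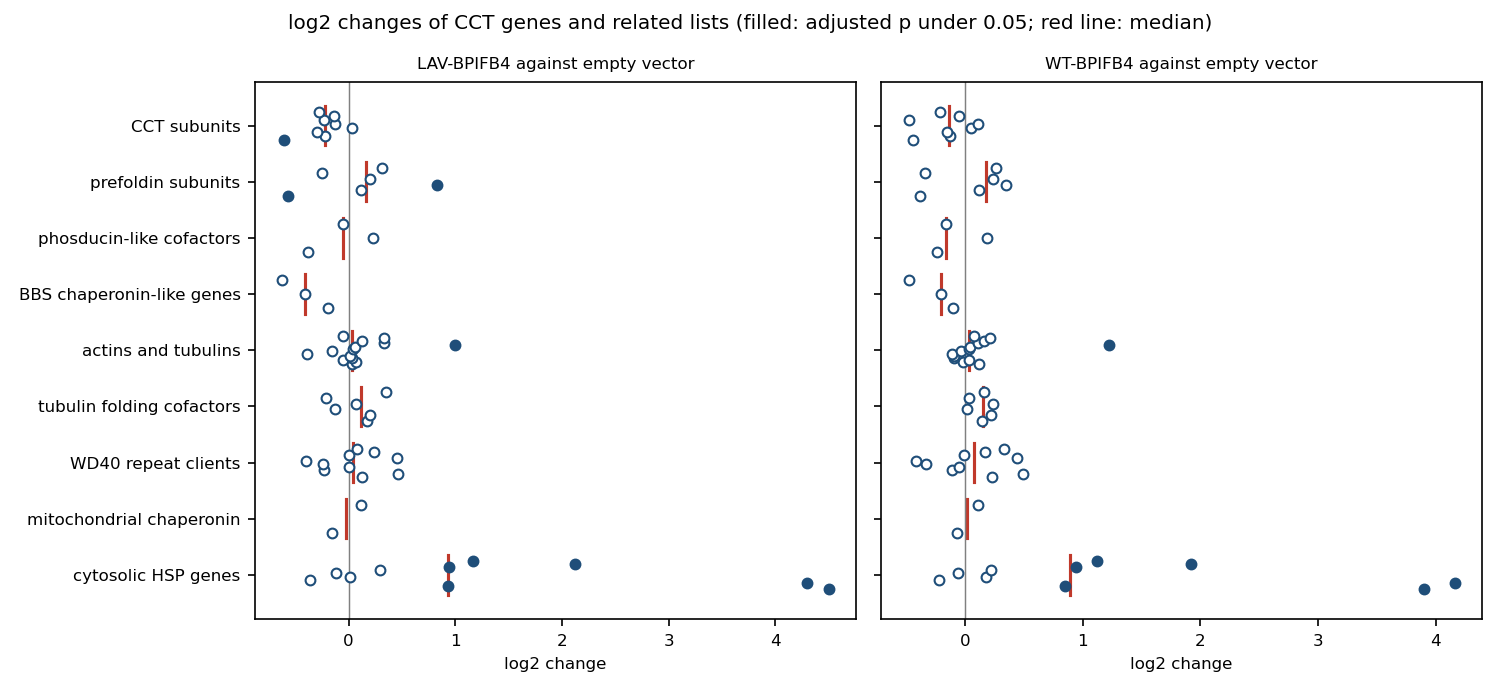
Log2 change (horizontal axes) of the genes of each list (rows, 1 symbol a gene at its brightest kept probe, filled where the adjusted p is under 0.05, red line for the median) for LAV-BPIFB4 and WT-BPIFB4 against empty vector. The filled symbols far right are cytosolic heat shock genes, such as HSPA6 at 4.30 with LAV-BPIFB4 and 4.16 with WT-BPIFB4, while CCT genes lie between -0.61 and 0.03 with LAV-BPIFB4 and between -0.48 and 0.11 with WT-BPIFB4 (some of these signs turn with median scaling).

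Some cytosolic chaperones and co-chaperones were higher on the same arrays. Of 10 measured, 6 rose and 0 fell with LAV-BPIFB4, beside 3.64% of all kept probes called higher. The same counts held for WT-BPIFB4, beside 0.607%. The 6 include BAG3, an HSP70 co-chaperone, and both HSPA1A and HSPA1B, which may not count as separate genes here. HSPA6 had 14.04, 14.07 and 14.01 with LAV-BPIFB4, 14.05, 13.88 and 13.78 with WT-BPIFB4, and 9.73, 9.25 and 10.24 with the empty vector, changes of 4.30 and 4.16. DNAJB1 rose by 2.12 and 1.92 and HSPB1 by 0.94 and 0.94, with adjusted limma p-values of at most 2.36e-05 in either comparison. HSPA1A was called higher as well, with 9.61, 9.23 and 9.27 with LAV-BPIFB4, 9.04, 8.64 and 8.62 with WT-BPIFB4, and 5.35, 4.58 and 4.67 with the empty vector, where its probe was above background on only 1 of the 3 arrays. The size of its change therefore rests on the background correction, with 4.50 and 3.90 as fitted and 2.59 and 2.09 without that correction, and its near-identical copy HSPA1B makes the split between these loci uncertain. HSPA8, the constitutive HSP70, had changes of -0.36 with LAV-BPIFB4 (limma, adjusted p = 0.0511) and -0.22 with WT-BPIFB4.

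MRPL18, a mitochondrial ribosomal protein gene, was looked at after its values were seen because its annotated start sites lie 210, 265 and 865 bases from that of TCP1 on the opposite strand. Its probe ILMN_1804479 had 11.94, 11.82 and 11.94 with LAV-BPIFB4, 11.64, 11.92 and 11.83 with WT-BPIFB4, and 11.31, 11.40 and 11.30 with the empty vector. Every BPIFB4 array was above every empty vector array, with changes of 0.56 ± 0.11 for LAV-BPIFB4 (limma, adjusted p = 0.0038) and 0.46 ± 0.11 for WT-BPIFB4 (limma, adjusted p = 0.0398). The WT-BPIFB4 call was lost in 12 of 20 alternatives and the LAV-BPIFB4 call in 1. The second MRPL18 probe, ILMN_2230672, had changes of 0.30 and 0.27 with overlap and no call. Across the stretch between these start sites, 1 TCP1 probe was therefore lower and 1 MRPL18 probe higher with LAV-BPIFB4, and the other probes of both genes were not called.

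Other neighbours were also chosen after their values were seen. TSACC starts 234 bases from CCT3 and COMMD1 54 bases from CCT4, each on the opposite strand, and they had LAV-BPIFB4 changes of 0.25 and 0.57, neither called. COMMD1 had 9.79, 9.59 and 9.71 with LAV-BPIFB4, 9.20, 9.56 and 9.88 with WT-BPIFB4, and 9.26, 8.60 and 9.51 with the empty vector (LAV-BPIFB4 against empty vector, limma, adjusted p = 0.0733). PRADC1, 1024 bases from CCT7, had changes of -0.01 and -0.13. Near CCT6A, 1 PSPH probe rose with LAV-BPIFB4 by 0.97 (limma, adjusted p = 0.0165, with a change of 0.44 without background correction) while the other PSPH probe had a change of 0.04, and SUMF2 had no call. Of the H/ACA snoRNAs that lie inside members, SNORA20 and SNORA29 of TCP1 were kept and not called, and SNORA15 of CCT6A was detected on 1 array and not kept.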

How the data were processed

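RNA from 9 samples was measured on Illumina bead arrays, 1 array per sample. Per the file headers, the deposited non-normalized table lists, for each array, the intensity of every probe with its detection p-value, which the authors made with BeadStudio per the submitters' processing notes. The detection p-value sets a probe against its array's negative controls. A deposited value table holds a second intensity per sample, with a normalization not given in the sources used here. It was used as an alternative only, since its LAV-BPIFB4 columns matched none of the non-normalized arrays (highest r 0.994, against 1 for the other 6 samples).

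Signals were background-corrected from the detection p-values, given an offset of 16, quantile-normalised and log2-transformed (neqc in limma 3.58.1, run under R 4.3.3). A probe stayed in when 3 or more of the 9 arrays detected it, at a detection p-value below 0.05. A model with 3 group means was fitted with lmFit and eBayes with an intensity trend, tests were two-sided, and a probe was called at p below 0.05 after Benjamini-Hochberg adjustment across all 20914 probes that stayed in. Levels are log2 intensities per array, changes are differences of group means, and precision is set by the 3 arrays of a group. The fit was also run on simulated data with independent noise for each probe and array. That run held no effect shared by arrays or replicates, so it could not assess such effects here.

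The 8 members and the other gene lists were chosen with earlier results of these data known. Named were all member probes, called members of the other lists (up to 4 each), all prefoldin subunits, HSPD1 and HSPE1, and the 5 genes with the highest r to the members' mean, with the brightest kept probe standing for a gene that is no member. Neighbours, snoRNAs and the pseudogene were added after their values were seen. Neighbouring genes were found in the RefSeq annotation, whose assembly is GRCh38.p14, used for gene names and distances between start sites. Promoter sequences are RefSeq's. Replicate numbers were not used to pair the arrays in the main fit. After group means were removed, same-numbered arrays of different groups had correlations of 0 to 0.22 and differently numbered arrays -0.15 to 0.07. A replicate block is therefore given as an alternative below. Probe sequences were not used here.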

Additional observations from a re-analysis of the deposited data

How the results depend on the processing

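Counts of calls, the changes of the CCT probes and those of the named called genes were recomputed under 20 alternatives (19 for HSPA1A, which was not kept under the stricter filter). Counts over the other lists, pairs of probes and promoter letters have no alternatives, and correlations within groups have 1 kind, added after seeing the data, which left out single arrays and gave a median r of -0.12 to 0.55. With LAV-BPIFB4 against empty vector, 1615 probes were called, and 243 with median scaling, 910 from the value table, 923 with no filter, 210 with no intensity trend, 2962 with array weights and 2740 with a replicate block, with 507 to 2570 when single arrays were left out. Higher calls were 762 of the 1615 and 205 of the 243 with median scaling. The CCT count of 1 was 0 with median scaling, the value table or no intensity trend, 2 with detection p under 0.01 on all 9 arrays, 4 with array weights or only the 2 groups compared, 3 with the replicate block, and 0 to 5 without single arrays. With WT-BPIFB4 against empty vector, 224 probes were called, and 52 with median scaling, 105 with no filter, 31 with no intensity trend, 1120 with array weights, 87 with only the 2 groups compared and 829 with the replicate block, with 68 to 1613 without single arrays. Its CCT count of 0 was 4 with array weights, 2 with the replicate block (both CCT6A probes) and 0 to 5 without single arrays. Between the BPIFB4 forms, 0 probes were called, and 4 with median scaling, 1 with array weights and 17 with the replicate block, none of them a CCT probe. With median scaling the median of all probes for LAV-BPIFB4 against WT-BPIFB4 was 0.1287 and that of the CCT probes 0.15, with 1 of 14 below 0 in place of 8. With group means removed, 6 of 9 arrays correlated best with their own replicate number in both other groups, and what same-numbered arrays share was not tested. TCP1 ILMN_1776347 kept its LAV-BPIFB4 call in 15 of 20 alternatives (-0.71 to -0.33), losing it with median scaling, the value table, no intensity trend, and without LAV-BPIFB4 replicate 1 or empty vector replicate 3. VBP1 kept its call in 16, TUBB3 in 19 for each BPIFB4 form and PSPH in 14, and HSPA6, DNAJB1 and HSPB1 kept theirs in all 20. In the comparisons with the empty vector, signs turned for 25 values of CCT probes, none of them called. With median scaling and LAV-BPIFB4 these were 0.16 (TCP1 ILMN_1660661), 0.13 (CCT2), 0.04 (CCT3 ILMN_2334989), 0.07 (CCT7 ILMN_1662954), 0.20 (CCT7 ILMN_2341793) and 0.08 (CCT8). With median scaling and WT-BPIFB4 they were -0.06 (TCP1 ILMN_2313434), 0.01 (CCT2), -0.01 (CCT4) and 0.08 (CCT7 ILMN_2341793). The value table gave 0.04 (TCP1 ILMN_1660661), -0.02 (TCP1 ILMN_2313434) and -0.01 (CCT4) for LAV-BPIFB4, and array weights -0.02 for CCT4 with WT-BPIFB4. Without single arrays, LAV-BPIFB4 changes ran from -0.04 to 0.1 (CCT4), -0.12 to 0.04 (TCP1 ILMN_1660661) and -0.08 to 0.14 (CCT7 ILMN_1703718), and WT-BPIFB4 changes from -0.06 to 0.14 (TCP1 ILMN_2313434), -0.11 to 0.14 (CCT4), -0.24 to 0.06 (CCT7 ILMN_1703718) and -0.14 to 0.02 (CCT7 ILMN_2341793). The cause of these changes was not tested, except that the value table holds other LAV-BPIFB4 values and array removal leaves fewer arrays.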
